A study of Mus musculus with 2 samples.

Results

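The genes described are 4 chemokines and 2 chemokine receptors of type 2 immunity, 6 of the 32589 genes in the count files, each found once by its symbol. The chemokines were Ccl1 (ENSMUSG00000020702), Ccl17 (ENSMUSG00000031780), Ccl22 (ENSMUSG00000031779) and Ccl24 (ENSMUSG00000004814), and the receptors Ccr4 (ENSMUSG00000047898) and Ccr8 (ENSMUSG00000042262). They were chosen for their levels in these libraries, so those levels and their differences are descriptions with no test. The cells came from MC38 tumours, grown from a colon carcinoma line of the mouse and taken at day 19 after inoculation, and were sorted as live cells carrying CD45, the leukocyte surface protein. One library was made for the control group (Ctrl) and 1 for the BiDT group, each from cells of 5 pooled biological replicates, and both belong to batch 1. BiDT is not spelled out in the labels; the study's title speaks of an anti-TIM3–IFN fusion protein. The protocol field of both samples names the BiDT treatment, and the groups were taken from the field that separates them. What the control animals received, and the strain, sex and age of the mice, are not given in the sources used here.

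CCL17 and CCL22 are ligands of CCR4, a receptor of type 2 helper and regulatory T cells, and are made mainly by dendritic cells and by macrophages exposed to interleukin 4 or 13. CCL1 is a ligand of CCR8, which regulatory T cells in tumours and type 2 helper T cells can carry, and activated T cells and mast cells are known sources of it. CCL24, or eotaxin-2, attracts eosinophils through CCR3 and is made by macrophages. Mouse CCR8 has a further ligand, CCL8, a macrophage chemokine.

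With 1 library per group no difference had a replicate check, and every interval given covers counting error only. Values are unique molecular identifiers (UMIs), each counting 1 captured RNA molecule, and levels are CPM, a gene's share of all UMIs of a cell class on the usual scale of expression counts. Classes are named for the marker genes of their gate, and the members were in no gate. The Ctrl library held 34310 barcodes and 211047063 UMIs, and the BiDT library 34996 and 130313537. The filters left 30336 and 31663 cells with medians of 4172.5 and 2618 UMIs. The 2 libraries shared 713 barcodes. The barcodes are written as 3 joined segments, which is not the form that the stated 10x Genomics workflow writes. Ptprc, which encodes CD45, was detected in 77.5% of Ctrl and 73.5% of BiDT cells, and 3.41% and 2.98% of cells met the gate for non-immune cells with collagen genes. Of the non-immune cells, 25.0% and 26.2% had a Ptprc UMI.

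Over all filtered cells Ccl17 gave 66948 UMIs in Ctrl and 8474 in BiDT, or 356 and 72.7 CPM, and Ccl22 21647 and 3797, or 115 and 32.6 CPM. Ccl24 gave 206 and 129 CPM, and Ccl1 23.4 and 15.7 CPM. The receptors were scarce, with 189 and 207 UMIs of Ccr8 (1.006 and 1.78 CPM) and 51 and 31 of Ccr4 (0.271 and 0.266 CPM). Ccl17, Ccl22 and Ccl24 were thus lower in BiDT by more than 1.5 times and Ccr8 was higher. Across all cells 6.73% of the genes with at least 50 UMIs were lower by that much and 24.5% higher, and since the members were chosen on this contrast nothing is read from their count. The log2 ratios of BiDT over Ctrl were -2.29 for Ccl17 (95% interval -2.33 to -2.26), -1.82 for Ccl22 (-1.87 to -1.77), -0.68 for Ccl24 (-0.71 to -0.65), -0.57 for Ccl1 (-0.65 to -0.49) and 0.82 for Ccr8 (0.53 to 1.11). The interval of Ccr4 included 0 (-0.03, from -0.72 to 0.64). With each cell thinned to 1000 UMIs, the ratio of Ccr8 was 0.21 and that of Ccl1 -1.16. Scaling by the trimmed mean of M values (TMM), which aligns most genes, lowered every ratio over all cells by 0.22, so Ccl17 was then at -2.52. The shift was -0.32 in migratory DC, -0.23 in C1q-high macrophages, -0.18 in C1q-low myeloid cells, -0.12 in cDC2, -0.06 in CD8 T cells and -0.04 in Treg.

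**Figure D1:**
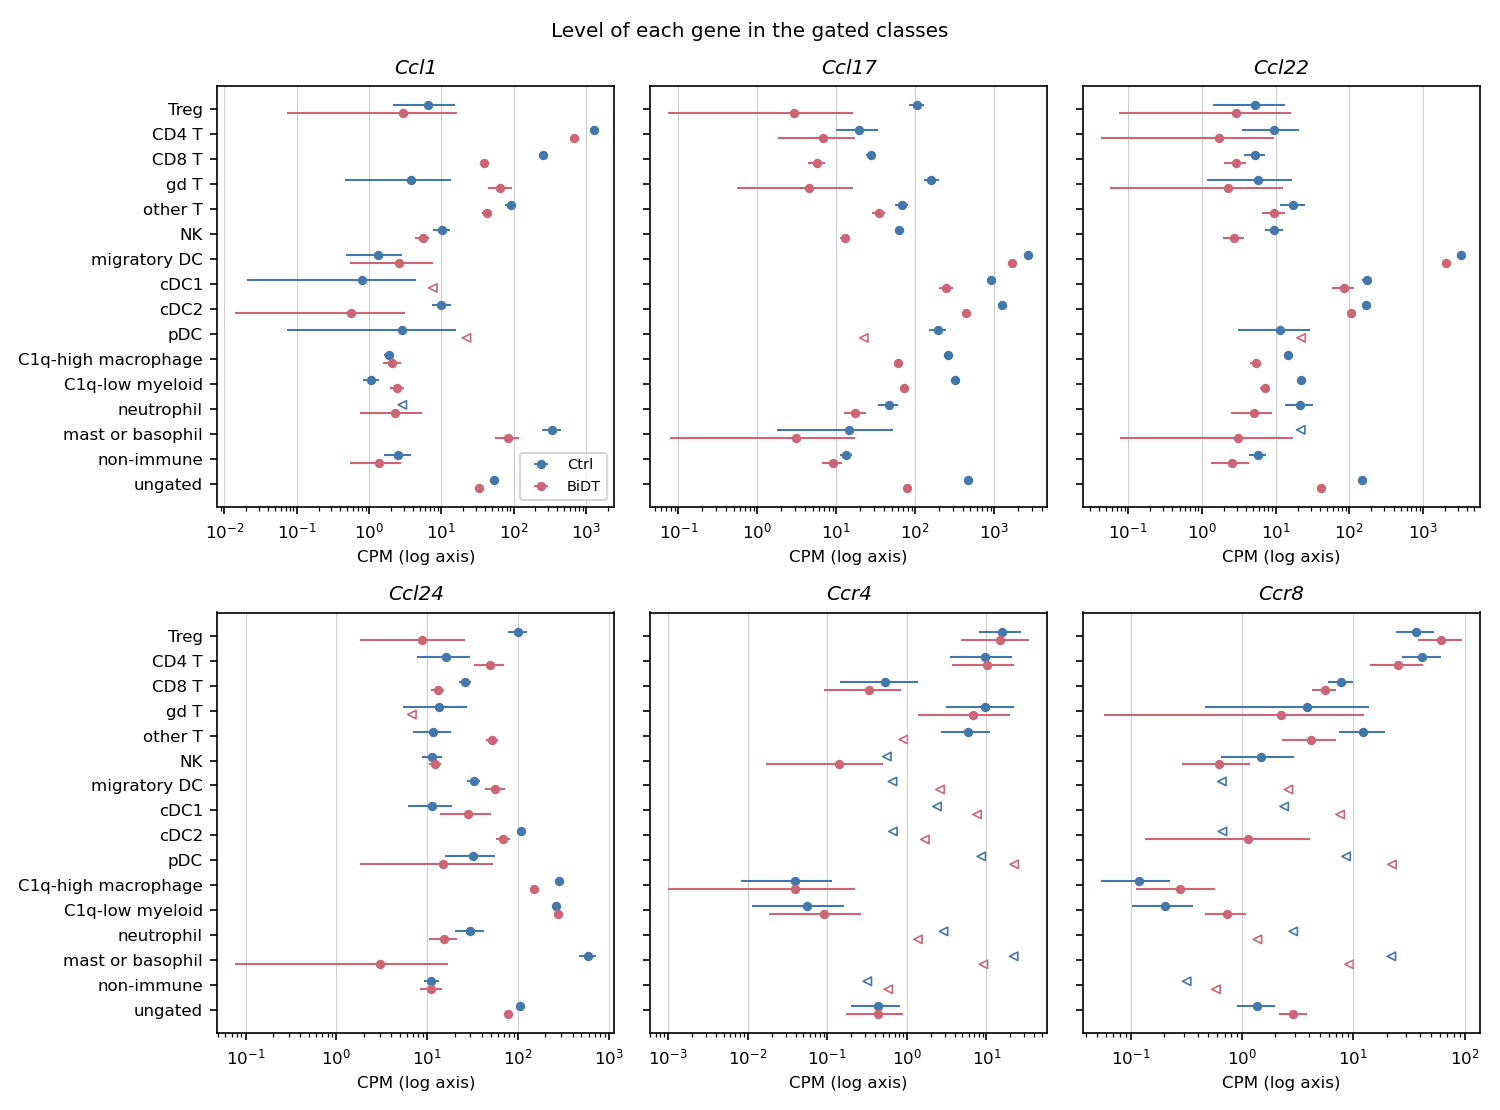
Level of the 6 genes in CPM (log axis, one scale per panel) in each gated class of the Ctrl (blue) and BiDT (red) libraries, with 95% Poisson intervals. Open triangles mark classes with no UMI, drawn at the level of 3 UMIs. Ccl22 stood highest in migratory DC (3320 and 2087 CPM), Ccl1 in CD4 T cells (1300 and 679), and Ccr8 in Treg and CD4 T cells.

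Ccl17 and Ccl22 lie near each other on mouse chromosome 8, with their RefSeq start sites 64769 bases apart (GRCm38.p6). Because both were lower in BiDT and were found in the same cells, as shown further on, the 250 bases before each start are given, read 5′ to 3′ on the plus strand. Capitals mark TTC and GAA with any 4 bases between them, the spacing that STAT6 prefers, and TTCNNNGAA, the form with 3 central bases that other STAT proteins bind. STAT6 is the transcription factor that interleukins 4 and 13 activate. The windows are chr8:94810203-94810452 for Ccl17 and chr8:94745434-94745683 for Ccl22.
Ccl17: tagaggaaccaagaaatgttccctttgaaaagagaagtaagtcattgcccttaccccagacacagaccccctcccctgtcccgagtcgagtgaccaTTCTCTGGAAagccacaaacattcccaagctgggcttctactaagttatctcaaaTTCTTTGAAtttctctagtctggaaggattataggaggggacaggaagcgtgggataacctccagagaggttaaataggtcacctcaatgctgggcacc
Ccl22: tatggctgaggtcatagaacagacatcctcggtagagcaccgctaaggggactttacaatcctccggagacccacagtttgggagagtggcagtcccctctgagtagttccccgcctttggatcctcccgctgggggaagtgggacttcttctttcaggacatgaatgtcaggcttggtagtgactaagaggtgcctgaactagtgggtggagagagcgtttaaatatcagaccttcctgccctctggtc
The Ccl17 window held 1 match to the form with 4 central bases, beginning 154 bases before the start, and 1 match to TTCNNNGAA, beginning 99 bases before it. The 2 matches do not overlap, and both motifs read the same on either strand. The Ccl22 window held neither, and neither did those of Ccl1, Ccr4 and Ccr8. Of 32851 windows of this length in the table, 5.85% held the first form and 7.02% the second. A match is a string of letters and not a binding site, and no binding was measured here. Ccl24 was not matched in that table.

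Migratory DC, the dendritic cells gated on Ccr7, Fscn1, Cacnb3, Il4i1 and Apol7c, carry antigen to lymph nodes. Of the gated classes, Ccl17 was highest in them. There it stood at 2712 CPM in 731 Ctrl cells and at 1688 CPM in 280 BiDT cells, with log2 ratio -0.68 (-0.75 to -0.61). The ratio fell short of 1.5 times as a mean over cells (-0.48), thinned (-0.46), with the stricter gate (-0.55) and by named clusters (-0.41). In cDC2, a class of conventional dendritic cells gated on Flt3, Zbtb46 and Cd209a, it stood at 1261 and 445 CPM (-1.50, from -1.61 to -1.40). By named clusters the cDC2 ratio was -0.90. Of the gated cDC2 cells 72.1% in Ctrl and 49.1% in BiDT lay in dendritic clusters, and those outside stood at 381 and 131 CPM. The part of this make-up in the ratio was not tested. In cDC1, gated on Xcr1, Clec9a and Snx22, Ccl17 stood at 901 and 244 CPM (-1.89, from -2.20 to -1.58). In BiDT 1 cDC1 cell held 48 of that class's 96 Ccl17 UMIs. Cluster C7, described below, made up 24.0% of the gated cDC1 cells in Ctrl and 9.21% in BiDT. Its part in the cDC1 ratio was not tested. The order of these 3 gated classes was the same in both libraries and their Poisson intervals did not overlap. The order of clusters was not the same. C7, named as cDC2, stood above C38, named as migratory DC, in Ctrl (2907 and 2709 CPM) and below it in BiDT (1708 and 2032 CPM). The macrophage classes were lower per cell but far more numerous. Macrophages with high C1q genes held 262 CPM in Ctrl and 60.7 CPM in BiDT (-2.11, from -2.18 to -2.03), and the C1q-low myeloid class 320 and 72.6 CPM (-2.14, from -2.20 to -2.08). By named clusters in place of the gate the C1q-low ratio was -1.28.

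In cells thinned to 1000 UMIs, Ccl17 was detected in 53.6% of Ctrl migratory DC (49.9 to 57.3%) and in 46.1% of those in BiDT (40.1 to 52.1%), so the 2 intervals overlapped. Before thinning, at medians of 5022 and 2986 UMIs, the shares were 70.7% and 56.1%. In cDC2 the thinned shares were 28.5% and 14.6%, and in C1q-high macrophages 8.38% and 2.51%. Before thinning these were 41.8% and 20.4%, and 19.7% and 4.41%. Neutrophils, which should lack the gene, gave thinned shares of 2.42% (1.21 to 4.28%) and 1.08% (0.542 to 1.93%), at medians of 1909 and 1789 UMIs per cell. Unthinned, their shares were 7.03% and 2.27%. The thinned C1q-high intervals, 7.84 to 8.95% in Ctrl and 2.15 to 2.91% in BiDT, lay above those of the neutrophils. The background itself was lower in BiDT, at 17.5 CPM in neutrophils against 46.2 CPM (-1.41, from -2.06 to -0.76) and at 8.96 CPM in non-immune cells against 13.3 CPM (-0.57, from -1.09 to -0.07), and its part in the class ratios was not tested.

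Although Ccl17 was densest in dendritic cells, the 2 C1q classes together held 55.4% of its UMIs in Ctrl and 46.3% in BiDT. The 4 dendritic classes held 28.6% and 33.3%. Cells that no gate took held 14.5% and 14.95%, and 66.2% and 67.6% of those UMIs lay in dendritic clusters. Some of the macrophage signal came from cells that clustered with dendritic cells. In the C1q-low class 508 Ctrl cells (4.47%) lay in dendritic clusters and held 36.5% of that class's Ccl17 UMIs, and in BiDT 172 cells (1.64%) held 44.6%. Outside those clusters the class stood at 213 and 40.9 CPM, a log2 ratio of -2.38. In C1q-high macrophages 1.83% of Ctrl cells and 0.675% of BiDT cells lay there with 23.7% and 9.03% of the UMIs, and the rest stood at 203 and 55.5 CPM (-1.87). Outside dendritic clusters the C1q-high and C1q-low classes held 15177 and 10932 of the 66948 Ctrl UMIs. In BiDT they held 1390 and 1329 of 8474. The dendritic clusters C7 and C38, described below, held 35.7% and 11.7% of all Ccl17 UMIs in Ctrl and 24.5% and 19.8% in BiDT. Which source held more thus depends on the grouping.

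**Figure D2:**
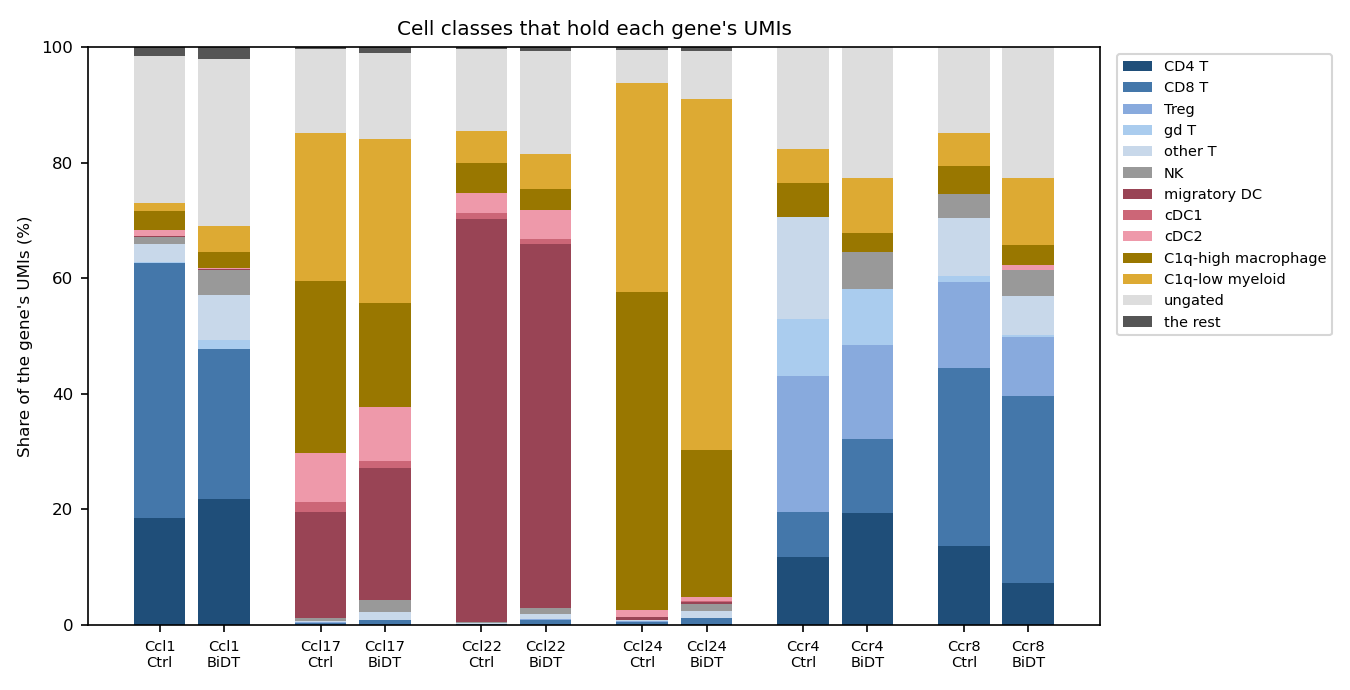
Share of the UMIs of each gene held by each gated class in the Ctrl and BiDT libraries, in percent of the gene's UMIs over all filtered cells. Ccl22 came mostly from migratory DC (69.7% and 63.0%), Ccl24 mostly from the 2 C1q classes (91.2% and 86.2%), and Ccl1 and the receptors mostly from T cells.

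A few cells held most of the Ccl17. In Ctrl 1446 cells with 10 or more UMIs held 86.4% of the gene's UMIs, and in BiDT 219 such cells held 69.1%. Among migratory DC the cells with any Ccl17 had a median of 10 UMIs in Ctrl and 5 in BiDT, beside the lower BiDT depth. One BiDT cell of the C1q-low class held 335 UMIs, 13.98% of that class's total. Without the richest cell of each library the ratio of that class was -2.33.

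The same cells were grouped into 52 clusters without the 6 genes among the variable genes, and the gated macrophage classes had different make-up in the 2 libraries. In Ctrl the C1q-high class was led by clusters C6 (14.2% of its cells), C0 (10.8%) and C1 (9.77%), and in BiDT by C10 (27.0%), C21 (14.4%) and C5 (8.33%). The C1q-low class was led by C3 (13.5%) and C15 (8.90%) in Ctrl and by C39 (9.99%) and C36 (8.60%) in BiDT. Of the 6 clusters with the most Ccl17 UMIs, 3 had similar levels in both libraries. In C6, led by Chil3, Mgl2 and Fn1, it stood at 468 and 443 CPM (-0.08, from -0.28 to 0.11). In C23, led by Mgl2, H2-DMb2 and Dcstamp, it stood at 1284 and 1162 CPM (-0.14, from -0.31 to 0.02). In C22, led by Dcstamp, Fgf13 and Antxr2, it stood at 756 and 850 CPM (0.17, from 0.03 to 0.30). The number of cells in these 3 clusters did differ, with 1791 and 76 cells in C6, 1034 and 88 in C23, and 1176 and 297 in C22. In C1, led by the cell division genes Pclaf, Ube2c and Ccna2, the level was 197 and 58.9 CPM (-1.74, from -2.50 to -1.08) in 1097 and 34 cells. A cluster held mostly by 1 library may be that library rather than a cell type, which 1 library per group cannot tell apart.

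In the dendritic clusters the level itself was lower in BiDT. Ccl17 stood at 2907 and 1708 CPM in C7, led by Plet1, Iglc2 and H2-DMb2 (-0.77, from -0.83 to -0.70), and at 2709 and 2032 CPM in C38, led by Ccr7, Fscn1 and Tbc1d4 (-0.41, from -0.49 to -0.34). C7 held 1253 and 286 cells, and C38 548 and 277. With the Ctrl level of every cluster and the BiDT share of UMIs in each, Ccl17 over all cells would stand at 102 CPM, against 356 observed in Ctrl and 72.7 in BiDT. With BiDT levels and Ctrl shares it would stand at 251 CPM. On the log2 scale the cluster shares alone gave -1.80 and the levels alone -0.51. Over the gated classes, which are broader, the same arithmetic gave -0.37 for shares and -1.72 for levels, so the division depends on how finely cells are grouped.

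**Figure D3:**
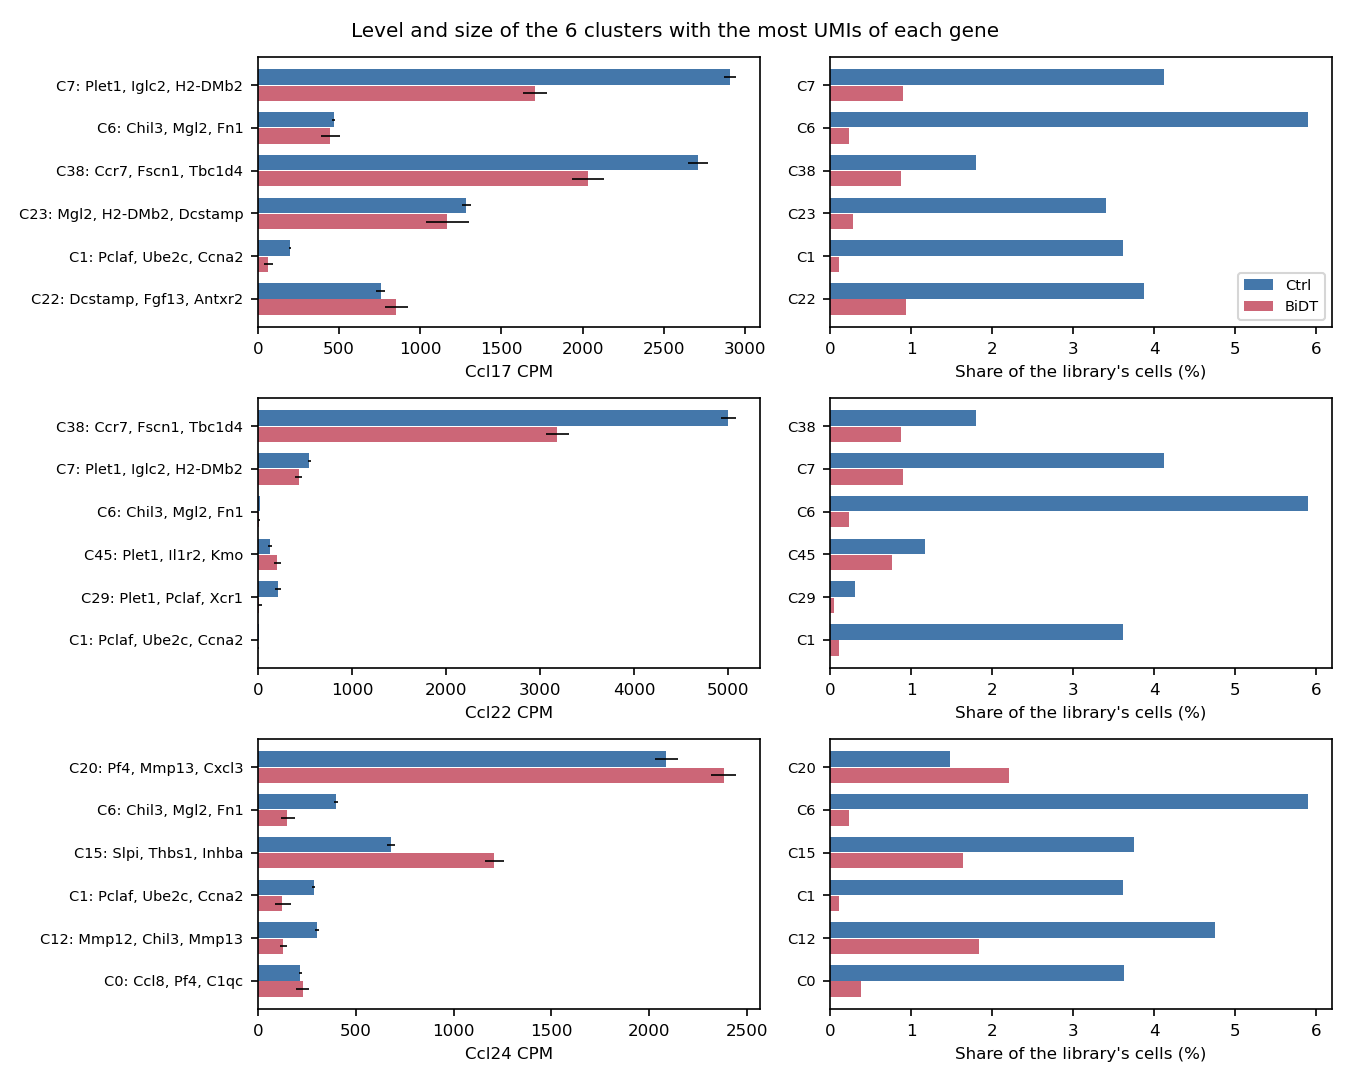
Level in CPM with 95% Poisson intervals (left) and share of the library's cells (right) of the 6 clusters with the most UMIs of Ccl17, Ccl22 and Ccl24, named with their 3 leading genes. For Ccl17 the bars of C6, C23 and C22 are alike on the left and far apart on the right.

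Ccl22 lay mostly in 1 class. Migratory DC held 69.7% of its UMIs in Ctrl (69.1 to 70.3%) and 63.0% in BiDT (61.5 to 64.6%). In them it stood at 3320 and 2087 CPM (-0.67, from -0.73 to -0.61). With TMM the ratio was -0.99. Thinned (-0.53), as a mean over cells (-0.48) and with the stricter gate (-0.58) it fell short of 1.5 times. Thinned shares of cells with a UMI were 64.6% (61.0 to 68.0%) and 58.6% (52.6 to 64.4%), with overlapping intervals, and 82.4% and 73.2% before thinning. In non-immune cells, at medians of 7755 and 4219 UMIs, they were 0.290% and 0.318% thinned and 4.64% and 1.38% unthinned.

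Outside migratory DC, Ccl22 stood at 169 and 107 CPM in cDC2 (-0.66, from -0.90 to -0.43) and at 173 and 83.8 CPM in cDC1 (-1.05, from -1.62 to -0.51). Those 2 classes did not differ in Ccl22 beyond their intervals in either library. Thinned to 1000 UMIs, the cDC2 ratio was -0.11, and with the stricter gate -1.33. The C1q-high and C1q-low classes held 14.7 and 22.4 CPM in Ctrl and 5.36 and 7.12 CPM in BiDT, against 21.2 CPM (13.3 to 32.1) in Ctrl and 5.05 CPM (2.52 to 9.04) in BiDT neutrophils. Both classes stood above the 5.73 CPM (4.31 to 7.48) and 2.53 CPM (1.35 to 4.33) of non-immune cells, and neither stood above neutrophils beyond the intervals. In cluster C38, the main source, Ccl22 stood at 5000 and 3184 CPM (-0.65, from -0.71 to -0.59). In C45, a dendritic cluster with 355 and 242 cells, it was higher in BiDT, at 129 and 202 CPM (0.64, from 0.27 to 1.02). With Ctrl levels and BiDT cluster shares Ccl22 over all cells would stand at 51.6 CPM, and with BiDT levels and Ctrl shares at 75.9 CPM, from 115 in Ctrl and 32.6 in BiDT. Over the gated classes these values were 68.9 and 62.8 CPM, so which of the 2 was lower depends on the grouping.

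Ccl17 and Ccl22 were often found in the same migratory DC. In thinned Ctrl cells 318 of 392 cells with Ccl17 also had Ccl22 (81.1%, 76.9 to 84.9%), against 154 of 339 cells without Ccl17 (45.4%, 40.0 to 50.9%). In BiDT the shares were 76.0% (67.7 to 83.1%) and 43.7% (35.7 to 52.0%). In cDC2 21.2% of Ctrl and 21.7% of BiDT cells with Ccl17 had Ccl22, against 4.48% and 3.42% of the others. In both classes the intervals of the 2 libraries overlapped. Among C1q-high macrophages 5.88% of Ctrl cells with Ccl17 had Ccl22, against 0.953% of those without. Mgl2, a lectin gene that interleukin 4 induces in macrophages and that dendritic cells carry too, was found in 53.8% of Ctrl C1q-high cells with Ccl17 and 25.3% of those without, and in 19.3% and 6.43% in BiDT.

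In migratory DC 3 members had at least 50 UMIs, and Ccl17 and Ccl22 were lower by 1.5 times or more while Ccl24 was higher. The Ccl24 ratio of 0.77 there was 0.28 without the richest cell of each library and -1.54 by named clusters, and 34.4% of its BiDT UMIs lay in dendritic clusters against 94.6% in Ctrl. Of all genes measured in that class, 7.56% were lower by that much and 19.9% higher. In cDC2 3 members were measured and 3 were lower, beside 7.52% of all genes, and in C1q-high macrophages 3 of 4, beside 13.1%. In the C1q-low class 2 of 4 were lower and 1 higher, beside 5.71% and 16.7%. In CD8 T cells 4 of 5 were lower, beside 4.42% of all genes, in CD4 T cells 1 of 1, beside 7.49%, and in Treg 2 of 2, beside 11.0%. The CD8 T members that were lower were Ccl1, Ccl17, Ccl22 and Ccl24. There 1 Ctrl cell held 91 of the 208 Ccl17 UMIs and 1 held 72 of the 196 Ccl24 UMIs, and Ccl22 had 39 UMIs in Ctrl and 35 in BiDT. The Treg members were Ccl17 and Ccl24, and in Ctrl 2 cells held 81.2% of the 80 Ccl17 UMIs and 1 cell 92.1% of the 76 Ccl24 UMIs. The members were chosen on these contrasts, and these counts only describe them.

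Ccl24 was a macrophage gene in both libraries. The C1q-high class held 55.0% of its UMIs in Ctrl and 25.5% in BiDT, and the C1q-low class 36.2% and 60.7%. In C1q-high macrophages it stood at 281 CPM in Ctrl and 152 CPM in BiDT (-0.88, from -0.93 to -0.83). In the C1q-low class it stood at 261 and 277 CPM (0.09, from 0.05 to 0.12), a sign that turned under TMM, where the ratio was -0.10. Thinned to 1000 UMIs, 11.4% of C1q-high cells had a Ccl24 UMI in Ctrl and 3.89% in BiDT, and 6.99% and 5.81% of C1q-low cells. The unthinned shares were 25.5% and 8.50%, and 13.6% and 9.35%. In non-immune cells the thinned shares were 0.870% and 1.17%, at 8.03% and 5.20% unthinned, and the level of 11.2 and 11.1 CPM was the same in both libraries within its intervals. In neutrophils the thinned shares were 4.62% (2.88 to 6.97%) and 1.28% (0.68 to 2.18%), intervals that did not overlap. Neutrophils held 31 UMIs of Ccl24 in 455 Ctrl cells and 33 in 1015 BiDT cells. By neutrophils the background was thus lower in BiDT, and its part in the class ratios was not tested.

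The cells richest in Ccl24 lay in cluster C20, led by Pf4, Mmp13 and Cxcl3, where it stood at 2087 and 2381 CPM in 451 Ctrl and 701 BiDT cells (0.19, from 0.13 to 0.25). In C15, led by Slpi, Thbs1 and Inhba, it stood at 680 and 1208 CPM (0.83, from 0.75 to 0.90) in 1139 and 519 cells. In C6, which also held Ccl17, it was lower in BiDT, at 399 and 150 CPM (-1.41, from -1.76 to -1.08). Clusters therefore went in both directions. With Ctrl levels and BiDT cluster shares Ccl24 over all cells would stand at 120 CPM, and with BiDT levels and Ctrl shares at 204 CPM, from 206 in Ctrl and 129 in BiDT. Over the gated classes these values were 159 and 155 CPM.

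Within the C1q-low class Ccl24 was found in cells with Mrc1 and Arg1, which encode the mannose receptor and arginase 1, markers of macrophages exposed to interleukin 4 or 13. In thinned Ctrl cells Mrc1 was detected in 35.8% of cells with Ccl24 (32.4 to 39.2%) and 12.6% of those without, and in BiDT in 43.5% (39.6 to 47.6%) and 11.1%. Arg1 was detected in 83.9% and 57.3% in Ctrl and in 82.0% and 48.3% in BiDT. Retnla, another gene of such macrophages, was not more frequent beside Ccl24, at 1.76% and 1.96% in Ctrl and 5.07% and 5.42% in BiDT. In C1q-high macrophages Ccl17 and Ccl24 did not share cells beyond these intervals, since Ccl24 was found in 11.8% (9.63 to 14.2%) of Ctrl cells with Ccl17 and 11.3% of those without. In BiDT these shares were 2.92% (0.956 to 6.69%) and 3.92%.

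Ccl1 came from T cells. The T classes held 65.9% of its UMIs in Ctrl and 57.2% in BiDT, and ungated cells 25.4% and 28.9%. CD4 T cells, gated on Cd3 genes with Cd4 or Cd40lg and without Foxp3 or Cd8 genes, had the highest level, at 1300 CPM in 184 Ctrl cells and 679 CPM in 182 BiDT cells (-0.94, from -1.11 to -0.76). The ratio was -0.14 with 1 more UMI asked of each gate, and -1.14 without the richest cell of each library. CD8 T cells stood at 258 CPM in 1773 Ctrl cells and 39.2 CPM in 2869 BiDT cells (-2.72, from -2.87 to -2.57). One Ctrl CD8 T cell held 459 UMIs, 23.7% of that class's total, and without the richest cells the ratio was -2.45. T cells of no single subset stood at 90.7 and 43.0 CPM and NK cells at 10.1 and 5.50 CPM. Gamma delta T cells had 2 UMIs in Ctrl and 29 in BiDT, the latter in 3 cells. Cells gated as mast cells or basophils, 16 in Ctrl and 40 in BiDT, stood at 337 and 82.55 CPM. Those UMIs lay in 5 and 8 cells, and 1 Ctrl cell held 20 of 46. The class was mixed. Granzyme genes led cluster C34, with 18.75% of its Ctrl cells, and cluster C37, with 27.5% of its BiDT cells.

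Ccl1 was carried by few cells at high levels. Among CD4 T cells 41 of 184 in Ctrl and 23 of 182 in BiDT had a UMI, and 17 and 9 cells with 10 or more UMIs held 89.3% and 87.8% of the total. The thinned shares were 16.8% (11.7 to 23.1%) and 8.79% (5.11 to 13.9%), whose intervals overlapped, and 22.3% and 12.6% unthinned. Among CD8 T cells they were 6.49% (5.38 to 7.73%) and 1.88% (1.42 to 2.45%), which did not overlap, and 12.4% and 3.66% unthinned. Non-immune cells gave 4 detections among 1034 thinned Ctrl cells (0.387%) and 0 among 943 BiDT cells, which allows up to 0.318%. Unthinned they gave 0.774% and 0.742%. Median depths of the CD4 T cells were 2888 and 2746 UMIs and of the CD8 T cells 3377 and 3345 UMIs, so depth differed little between libraries here.

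By cluster, 36.6% of Ctrl and 44.4% of BiDT Ccl1 UMIs lay in C19, which held 260 and 278 cells, 0.857% and 0.878% of each library. Its leading genes were Il13, Csf2, Cd4 and Il5, and Ccl1 stood there at 2196 and 1193 CPM (-0.88, from -1.004 to -0.76). In the CD8 T cluster C2, with 1172 and 1304 cells, it stood at 365 and 47.3 CPM (-2.95, from -3.16 to -2.74). Of the other CD8 T clusters, C27 had 118 and 50.7 CPM, and C44 had 222 and 63.2 CPM. The CD8 T class drew 58.8% of its Ctrl cells from C2 and 21.5% from C27, against 37.3% and 38.0% in BiDT. In each of these 4 clusters the interval of the ratio lay below 0. With BiDT levels and Ctrl cluster shares Ccl1 over all cells would stand at 8.94 CPM, and with Ctrl levels and BiDT shares at 43.6 CPM.

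In thinned CD4 T cells Il13, a type 2 cytokine gene, was detected in 11 of 31 Ctrl cells with Ccl1 (35.5%, 19.2 to 54.6%) and 10.5% of those without (6.10 to 16.4%). In BiDT it was detected in 8 of 16 (24.7 to 75.3%) and 12.0% (7.52 to 18.0%). Il5, the eosinophil growth factor gene, was detected in 8 of 31 (25.8%, 11.9 to 44.6%) and 3.27% in Ctrl and in 7 of 16 (43.8%, 19.8 to 70.1%) and 7.83% in BiDT. Both cytokine genes were thus more frequent beside Ccl1 in both libraries. Il4 was found in 2 of 31 and 1 of 16 such cells, too few to tell. Csf2, which encodes the growth factor GM-CSF, was found in 12 of 31 Ctrl cells with Ccl1 (38.7%, 21.9 to 57.8%) and 7.19% of those without (3.64 to 12.5%). In BiDT it was found in 1 of 16 (6.25%, 0.158 to 30.2%) and 16.3% (11.0 to 22.8%). In CD4 T cells Csf2 was thus more frequent beside Ccl1 beyond the intervals in Ctrl only. In thinned CD8 T cells it was so in both libraries. There Ctrl gave 6.09% (2.48 to 12.1%) with Ccl1 and 1.09% (0.645 to 1.71%) without. BiDT gave 9.26% (3.08 to 20.3%) and 1.46% (1.05 to 1.97%). Between the libraries the intervals of cells with Ccl1 overlapped.

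Ccr8 was highest in Treg, the regulatory T cells gated on Foxp3 with Cd3 genes, and in CD4 T cells. In Treg it had 28 UMIs in 211 Ctrl cells and 21 UMIs in 99 BiDT cells, or 36.6 CPM (24.3 to 52.8) and 61.8 CPM (38.2 to 94.4). In CD4 T cells it had 26 and 15 UMIs, or 41.7 CPM (27.2 to 61.0) and 25.4 CPM (14.2 to 41.9). As gated, the 2 classes did not differ beyond their intervals in either library. T cells of no single subset followed at 12.3 and 4.21 CPM, then CD8 T cells at 7.73 and 5.54 CPM. By cluster, C43, named as Treg, stood at 66.1 CPM (47.4 to 89.7) in BiDT. C19, named as CD4 T, stood there at 30.8 CPM (19.1 to 47.0), so these intervals did not overlap. In Ctrl they were at 39.7 and 43.7 CPM, with overlapping intervals. C43 also held 20.1% of the gated CD4 T cells in Ctrl and 12.6% in BiDT. The log2 ratios were 0.76 in Treg (-0.13 to 1.62), -0.71 in CD4 T cells (-1.74 to 0.26) and -0.48 in CD8 T cells (-1.01 to 0.05), so none of these 3 intervals excluded 0. Those of T cells of no single subset (-1.55, from -2.66 to -0.48; 19 and 14 UMIs) and of C1q-low myeloid cells (1.83, from 0.75 to 3.01; 11 and 24 UMIs) did. Thinned to 1000 UMIs the Treg ratio was -0.72.

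A Ccr8 UMI was found in 22 of 211 Ctrl Treg (10.4%, 6.65 to 15.4%) and 14 of 99 BiDT Treg (14.1%, 7.95 to 22.6%), at median depths of 2938 and 2726 UMIs. In CD4 T cells the shares were 10.3% and 7.69%, and in CD8 T cells 2.93% and 2.09%. Thinned, the shares were 2.84% and 2.02% in Treg, 3.26% and 2.20% in CD4 T cells and 0.846% and 0.592% in CD8 T cells. No non-immune cell had one, 0 of 1034 in Ctrl, which allows a share of up to 0.290%, and 0 of 943 in BiDT, up to 0.318%. Their medians were 7755 and 4219 UMIs, deeper than the T cells. Although rarer per cell, CD8 T cells held 30.7% of the Ccr8 UMIs in Ctrl and 32.4% in BiDT, against 14.8% and 10.1% in Treg. None of the gated Treg, CD4 and CD8 T classes was higher in BiDT beyond its interval, while the level over all cells was. Cluster C43, led by Tnfrsf4, Icos and Il2ra and named as Treg, was higher too, at 39.7 and 66.1 CPM (0.74, from 0.10 to 1.36) in 397 and 257 cells. With Ctrl levels and BiDT shares of the gated classes Ccr8 over all cells would stand at 1.94 CPM, from 1.006 observed in Ctrl and 1.78 in BiDT. With BiDT levels and Ctrl shares it would stand at 1.28 CPM. Over the clusters these values were 1.73 and 1.28 CPM.

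Treg were fewer in BiDT, 0.313% of cells (0.254 to 0.381%) against 0.696% (0.605 to 0.796%), CD4 T cells were 0.575% and 0.607%, and CD8 T cells 9.06% and 5.84%. Migratory DC, the main source of Ccl22, were 0.884% of BiDT cells (0.784 to 0.994%) and 2.41% of Ctrl cells (2.24 to 2.59%). A share is relative to the other cells captured, and no cell number per tumour is known.

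Ccr4 was near the limit of detection. Treg had 12 UMIs in Ctrl and 5 in BiDT, or 15.7 CPM (8.10 to 27.4) and 14.7 CPM (4.78 to 34.3), and 10 of 211 and 5 of 99 cells had one. CD4 T cells had 6 UMIs in each library, 9.62 and 10.2 CPM, and gamma delta T cells 5 and 3, or 9.54 and 6.78 CPM. The 3 classes did not differ beyond their intervals. CD8 T cells were lower, at 0.533 CPM (0.145 to 1.37) and 0.331 CPM (0.090 to 0.847), with 4 UMIs in each library. In migratory DC, cDC1, cDC2, neutrophils and non-immune cells no Ccr4 UMI was counted in either library. Ratios between the libraries spanned 0 in each T class where both had a UMI. In T cells of no single subset 9 UMIs in Ctrl stood against 0 in 859 BiDT cells, where a count of 0 allows up to 0.349% of cells with a UMI. The receptor of Ccl17 and Ccl22 was thus measured in too few molecules for a difference of moderate size to be detectable at this depth.

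**Figure D4:**
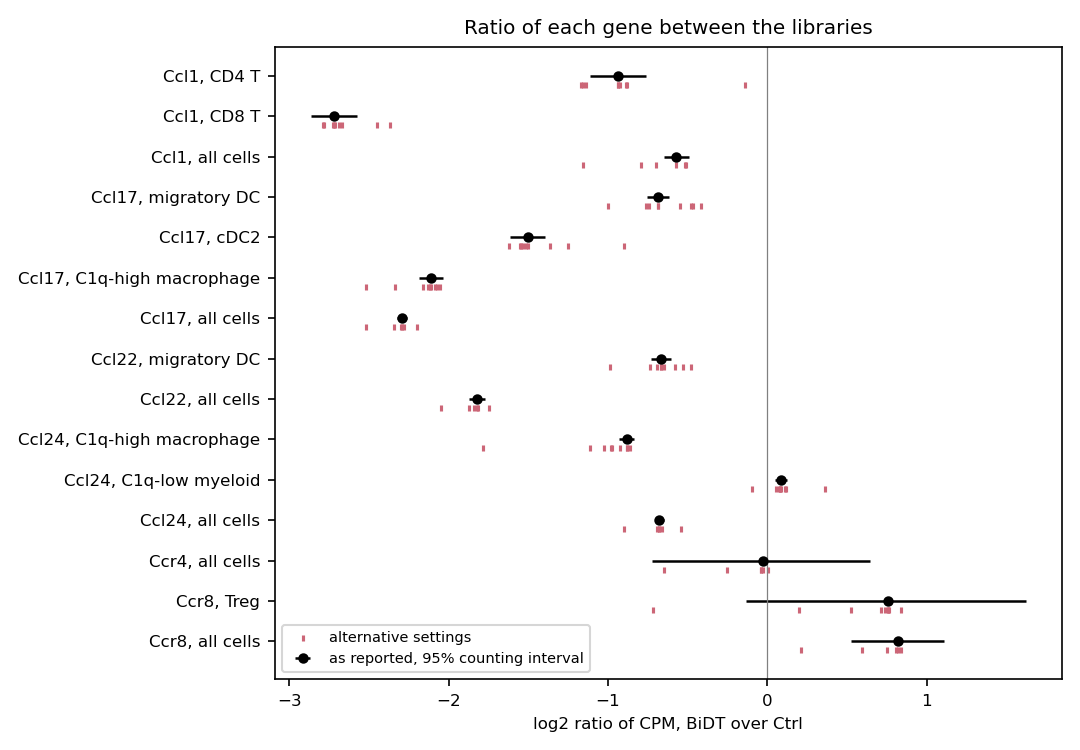
Log2 ratio of CPM, BiDT over Ctrl, for the main class of each gene and for all cells, with 95% counting intervals (black) and the values under alternative settings (red ticks). Ccl17 and Ccl22 lie left of 0 under each setting, Ccl24 in C1q-low myeloid cells crosses 0, and the intervals of Ccr4 over all cells and of Ccr8 in Treg include 0.

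By the pattern of log2(CPM + 1) over 13 gated classes with at least 50 cells in both libraries, 26 points in all, the 3 genes most like each member were listed. For Ccl17 these were Rtn1 (Pearson r 0.94), Grasp (0.92) and H2-Eb1 (0.92), a class II antigen-presentation gene. For Ccl22 they were Tmem131 (0.93), Kcp (0.92) and Kynu (0.92), which encodes kynureninase. For Ccl24 they were Adora2b (0.86), an adenosine receptor gene, Mrc1 (0.83) and Ndst2 (0.83), and for Ccl1 Gpm6b (0.89), Prxl2a (0.88) and Ntrk3 (0.87). For Ccr8 they were Sdf4 (0.96), Izumo1r (0.96), which encodes the folate receptor 4 of regulatory T cells, and the checkpoint gene Ctla4 (0.95). For Ccr4 they were Cpm (0.91), Odc1 (0.91) and Anp32a (0.89), from 82 UMIs of Ccr4 in all. Points of the same library share its depth and its free RNA, so these values describe the pattern only.

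A list of 36 further genes of type 2 immunity (cytokines, their receptors and signal proteins, chemokines and macrophage genes) was examined in the same classes, of which all were in the files. In CD4 T cells 20 had at least 50 UMIs, 8 were at least 1.5 times higher in BiDT and 3 lower, with a median log2 ratio of 0.42 against -0.01 for all 4086 genes measured. Among all genes 9.67% were higher by that much and 7.49% lower. Il4 stood at 62.5 and 296 CPM (2.24, from 1.74 to 2.78), Il5 at 311 and 615 CPM (0.98, from 0.73 to 1.24) and Il10, a suppressive cytokine gene, at 120 and 349 CPM (1.54, from 1.15 to 1.94). Il1rl1, the interleukin 33 receptor, stood at 107 and 207 CPM (0.94) and Areg, which encodes amphiregulin, at 636 and 1361 CPM (1.10, from 0.92 to 1.27). Il13 stood at 598 and 789 CPM (0.40, from 0.20 to 0.60), short of 1.5 times. In thinned cells Il4 was detected in 9 of 184 Ctrl and 11 of 182 BiDT cells, Il5 in 13 and 20 and Il13 in 27 and 28. Il4 was thus detected in few cells of either library, and their number differed little. In this class the Ccl1 ratio was -0.94, and -0.14 with the stricter gate. Il4ra, a receptor chain for interleukins 4 and 13, was higher by 0.65. Of the other called genes Ccl2 and Ccl7, higher, and Arg1, Chil3 and Mrc1, lower, are macrophage genes, and their signs were the same in C1q-high macrophages. Ccl2 stood at 106 and 198 CPM in CD4 T cells against 1107 and 2053 CPM in those macrophages, and the part of free RNA was not tested.

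In C1q-high macrophages 27 of the 36 were measured, 10 were higher and 8 lower, with a median of 0.26 against 0.09 for all 13499 genes, of which 20.8% were higher and 13.1% lower. The chemokines Ccl2, Ccl7, Ccl8, Ccl11 and Ccl12, which attract monocytes and eosinophils, were all higher. Ccl7 stood at 619 and 2643 CPM (2.09, from 2.08 to 2.11). Ccl8, the other mouse ligand of CCR8, stood at 193 and 537 CPM (1.48, from 1.44 to 1.51), opposite in sign to Ccl1 in T cells. Among the genes that interleukin 4 is known to induce in macrophages the signs differed, since Retnla was higher (212 and 1336 CPM, 2.66) while Mgl2 (616 and 130 CPM, -2.24), Chil3 (563 and 222 CPM, -1.34), Arg1 (4105 and 2633 CPM, -0.64) and Mrc1 (614 and 403 CPM, -0.61) were lower. The signal genes Il4ra (0.21), Il13ra1 (0.14) and Stat6 (0.26) stayed within 1.5 times. Ccl8 was detected in thinned cells in 2.45% of Ctrl C1q-high cells with Ccl17 (1.503 to 3.76%) and 5.86% of those without, and in BiDT in 3.51% (1.30 to 7.48%) and 12.0%. Beside Ccl24 it was more frequent in both libraries. In Ctrl it was found in 8.05% of cells with Ccl24 (6.51 to 9.81%) and 5.26% of those without (4.80 to 5.75%). In BiDT it was found in 23.8% of cells with Ccl24 (18.8 to 29.4%) and 11.4% of those without.

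In the C1q-low class 26 were measured, 9 higher and 3 lower, with a median of 0.05 against 0.10 for all genes, of which 16.7% were higher and 5.71% lower. The 9 higher genes were Retnla (2.21), Ccl12 (2.13), Ccl7 (1.99), Ccl8 (1.41), Ccl2 (1.34), Il13, Gata3, Csf2 and Cd163, the last 4 all under 10 CPM in both libraries. The 3 lower genes were Mgl2 (-1.59), Chil3 (-1.53) and Areg (-1.30). In migratory DC 16 were measured, 2 higher and 8 lower, with a median of -0.49 against 0.13, beside 19.9% and 7.56% of all genes. The 2 higher were Ccl2 and Ccl7, and the lower ones included Mgl2 at 662 and 271 CPM (-1.29, from -1.46 to -1.12) and Irf4, a transcription factor of dendritic cells, at 59.0 and 24.4 CPM (-1.27, from -1.89 to -0.71). Of the gated migratory DC 94.8% in Ctrl and 88.6% in BiDT lay in dendritic clusters. Cluster C7, with Mgl2 among its leading genes, made up 24.4% of them in Ctrl and 12.9% in BiDT. The part of this make-up in the migratory DC ratios was not tested. In cDC2 7 of 20 were higher and 3 lower, with a median of 0.29 against 0.03, beside 11.2% and 7.52% of all genes. Retnla stood there at 155 and 1799 CPM (3.53). Of the cDC2 cells 72.1% in Ctrl and 49.1% in BiDT lay in dendritic clusters. In BiDT 12.9% lay in C47, a cluster led by Retnla, Lyz1 and Ear2 that was not among the largest parts of the class in Ctrl. The part of this make-up in the ratios was not tested. In CD8 T cells 7 of 22 were higher and 4 lower, with a median of -0.08 against 0.06, beside 10.1% and 4.42% of all genes. Of these 11 genes Irf4, a factor of activated lymphocytes, stood at 65.4 and 115 CPM (0.81) and Il10 at 3.06 and 6.03 CPM (0.98), and the macrophage genes Ccl2, Ccl7, Ccl8, Ccl12, Retnla, Arg1, Chil3 and Mgl2 had the same signs as in C1q-high macrophages. In Treg 3 of 17 were higher and 4 lower, with a median of -0.17 against -0.02, beside 11.4% and 11.0% of all genes.

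**Figure D5:**
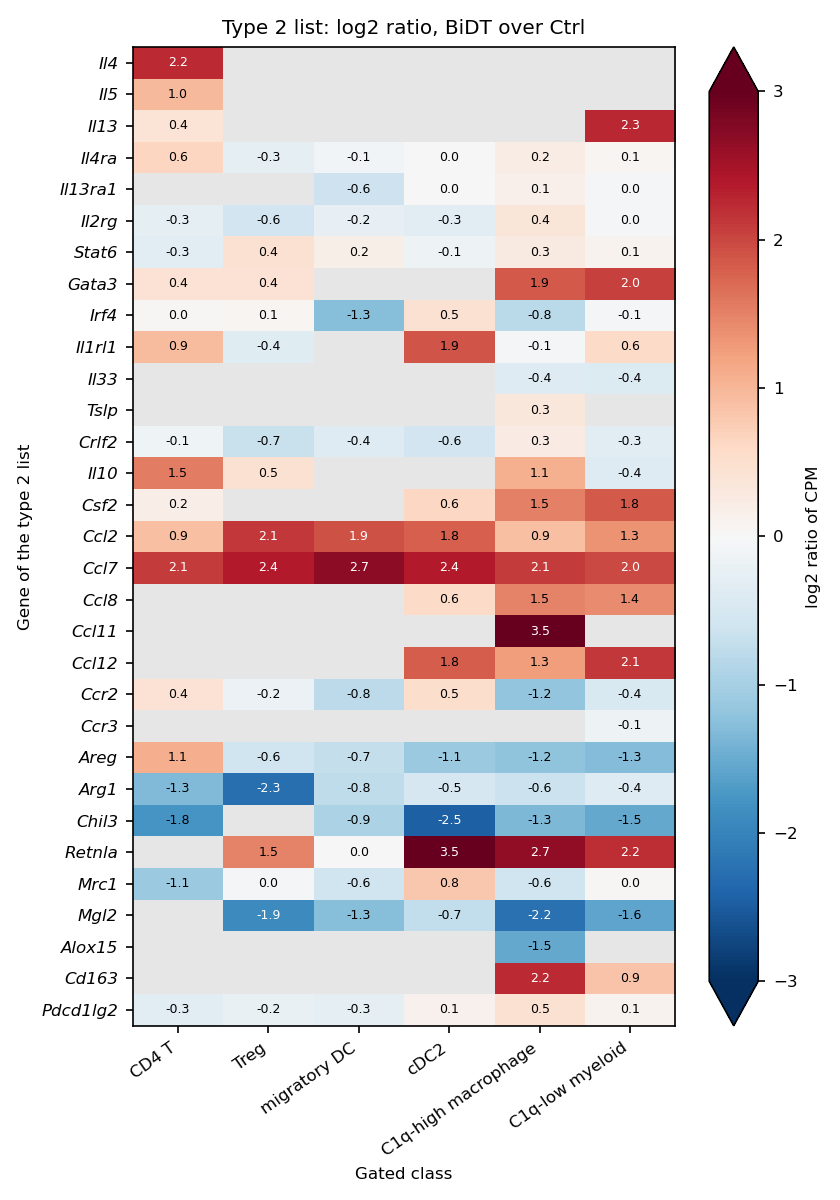
Log2 ratio of CPM, BiDT over Ctrl, of the genes of the type 2 list with at least 50 UMIs over both libraries in at least 1 of 6 gated classes; grey marks fewer UMIs. Ccl2 and Ccl7 were higher in each of the 6 classes, and Mgl2 and Chil3 were lower in each class where they were measured.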

How the data were processed

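Single-cell RNA libraries were made from sorted CD45+ cells of MC38 tumours, 1 for Ctrl and 1 for BiDT, with a 10x Genomics 3' workflow, per the labels' protocols. The authors deposited raw UMI counts per gene and barcode. Cell Ranger 7.1.0 and GRCm39 are named in the submitters' processing notes. Barcodes with at least 500 UMIs, 300 genes and at most 10% mitochondrial UMIs were kept, and Scrublet (in scanpy 1.11.5) scores of 0.15 or more were removed. That threshold follows earlier work on these data and was chosen after scores were seen, since Scrublet's own thresholds called 2 and 0 cells. This removed 6.96% and 8.02% of cells. Cells were gated on marker genes, and 52 Leiden clusters (resolution 4) were built without the members as an alternative. UMIs were summed per class as CPM, with exact Poisson intervals, and shares have exact Clopper-Pearson intervals. Log2 ratios have exact conditional binomial intervals, and the ratio step was tested on simulated counts. Thinning drew 1000 UMIs per cell, and no filtered cell had fewer. Intervals are at 95%, and they and the limit of 3 counts given where none was seen cover counting error only. CPM scales a gene's UMIs to a fixed class total. A gene was called at 1.5-fold if it had 50 or more UMIs in the libraries together. With 1 library per group there is no test and no p-value. The members, the type 2 list and the gates were chosen with earlier results of these data known. Named genes are the 6 members, the genes of the list past 1.5-fold in a described class, and the 3 genes most like each member among those with at least 200 UMIs. Alternatives were TMM scaling, a mean over cells, other depth, mitochondrial and doublet filters, thinning, a stricter gate, named clusters and, chosen after seeing the data, leaving out the cell richest in the gene. Promoter windows come from a RefSeq table of GRCm38.p6, which is not the build of the counts, and no coordinates were carried between builds.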

Additional observations from a re-analysis of the deposited data

Results flagged for a closer look

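For 4 results the sign of the ratio in 1 class was opposite to that in others, and the differences between classes were not tested. Ccl1 was higher in BiDT in the C1q-low myeloid class, with a log2 ratio of 1.17, and lower in 5 other classes. It had 58 UMIs in 52 Ctrl cells and 80 in 39 BiDT cells there, and 1 BiDT cell held 20 of them. Ccl24 was higher in T cells of no single subset, with a log2 ratio of 2.15, and lower in 6 other classes, and 1 BiDT cell held 140 UMIs, 81.4% of that class's total. Ccl24 was also higher in migratory DC, at 0.77, where 3 BiDT cells with 10 or more UMIs held 84.4% of 64 UMIs. In the C1q-low myeloid class the Ccl24 ratio was 0.087, against lower values in 6 other classes.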

How the results depend on the processing

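No paired analysis was possible because each group has 1 library. Of 225 values of 27 ratios under alternatives, 157 stayed within the counting interval of the reported ratio. The sign changed in 13, of which 7 belong to ratios whose interval excludes 0 and 6 to ratios whose interval includes it (Ccl1 in C1q-high cells under 4 settings, Ccr4 over all cells with high doublet scores kept, and Ccr8 in Treg thinned). Causes were not tested beyond what each setting does. Depth differed between the libraries, which limits shares of cells and scarce genes, above all Ccr4. The alternative minimum of 1000 UMIs removed no cell. Its 27 values, counted among the 225 and the 157, therefore could not change.

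With named clusters in place of gates the sign turned for Ccl1 in T cells of no single subset (0.78) and in C1q-low cells (-0.31), and for Ccl24 in T cells of no single subset (-0.57) and in migratory DC (-1.54). Ccl24 in T cells of no single subset also turned when thinned (-0.28) and with the stricter gate (-2.33), and Ccl24 in C1q-low cells under TMM (-0.10). The ratios listed next are those of the main classes and of all cells that moved outside their interval. Under TMM they were Ccl1 over all cells -0.79, Ccl17 in migratory DC -0.9998, in cDC2 -1.62, in C1q-high cells -2.34 and over all cells -2.52, Ccl22 in migratory DC -0.99 and over all cells -2.05, and Ccl24 in C1q-high cells -1.11 and over all cells -0.90. As a mean over cells they were Ccl1 in CD4 T cells -1.16, Ccl17 in migratory DC -0.48 and in cDC2 -1.25, Ccl22 in migratory DC -0.48 and Ccl24 in C1q-high cells -0.98. With high doublet scores kept they were Ccl1 over all cells -0.70, and Ccl22 in migratory DC -0.74 and over all cells -1.88. Thinned, they were Ccl1 in CD4 T cells -1.17 and over all cells -1.16, Ccl17 in migratory DC -0.46, in cDC2 -1.37 and over all cells -2.20, Ccl22 in migratory DC -0.53 and over all cells -1.75, Ccl24 in C1q-high cells -1.02 and over all cells -0.54, and Ccr8 in Treg -0.72 and over all cells 0.21. With the stricter gate they were Ccl1 in CD4 T cells -0.14, Ccl17 in migratory DC -0.55 and Ccl22 in migratory DC -0.58. By named clusters they were Ccl1 in CD8 T cells -2.37, Ccl17 in migratory DC -0.41, in cDC2 -0.90 and in C1q-high cells -2.52, and Ccl24 in C1q-high cells -1.78 and in C1q-low cells 0.36. Without the richest cell, an alternative chosen after seeing the data, they were Ccl1 in CD4 T cells -1.14 and in CD8 T cells -2.45, Ccl17 in migratory DC -0.76 and over all cells -2.34, and Ccl24 in C1q-high cells -0.98. In the remaining classes, Ccl17 in C1q-low cells was at -2.32 under TMM, -2.03 as a mean over cells, -1.28 by named clusters and -2.33 without the richest cell. Ccl22 in cDC2 was at -0.27 as a mean over cells, -0.11 thinned and -1.33 with the stricter gate, and Ccl22 in C1q-low cells at -1.39 as a mean over cells. Ccl24 in T cells of no single subset was at 0.54 as a mean over cells and 0.09 without the richest cell, and in migratory DC at 0.28 without it. Thinned, Ccl1 was at -2.11 in NK cells, -0.68 in T cells of no single subset and 2.40 in C1q-low cells, and Ccl17 at -1.42 in NK cells. Ccl1 in NK cells was at -1.72 by named clusters, and in T cells of no single subset at -0.65 with up to 20% mitochondrial UMIs. Ccl17 in NK cells was at -1.54 by named clusters and -1.83 without the richest cell.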
